A study of Mus musculus with 6 samples.

Results

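Dense-core vesicles are the storage granules of neurons and endocrine cells, which hold peptides and amines until a rise in calcium releases them. Granins are acidic, calcium-binding proteins that condense in the trans-Golgi network, form much of the granule core and are cut into shorter peptides. Priming proteins make docked vesicles ready to fuse, and the receptor-like phosphatases of the granule membrane lack activity towards phosphotyrosine and are linked to granule number and stability. The genes described here are the 10 rows of the deposited count table, of 24421 gene rows in all, that carry the symbols of the granins Chga, Chgb, Scg2 and Scg3, of the granin-like precursor Vgf, of the priming proteins Cadps, Cadps2 and Unc13a, and of the membrane phosphatases Ptprn and Ptprn2. The rule uses the symbol alone and no measured value, but the symbols were chosen with earlier results of these data known.

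RNA was sequenced from Neuro2a, a mouse neuroblastoma line of sympathetic character, 48 h after adenovirus delivered a hairpin against Fam172a (ADV-shFam172a, n = 3) or a control hairpin (ADV-shCtrl, n = 3). All 6 samples carry the genotype WT, were grown on collagen I in serum and received virus, and no sample without virus was analysed here. Each hairpin is given by name only, and nothing in the labels tells whether replicates were infected separately. The p-values therefore set each group difference against the spread among these samples only, estimated with all genes tested. That spread may be technical. Libraries held 21690467 to 23409319 read pairs counted in genes in ADV-shFam172a and 11250312 to 12820531 in ADV-shCtrl, so depth and group cannot be told apart by design. The target itself averaged 8.91 ± 0.543 CPM (the count scaled to library size and adjusted for composition) in ADV-shFam172a and 19.1 ± 0.469 CPM in ADV-shCtrl. The ribosomal RNA precursor Rn45s stood at 793 to 1141 CPM in ADV-shFam172a and at 410 to 565 CPM in ADV-shCtrl, and its part in the results below was not tested. ADV-shFam172a replicate 3 stood somewhat apart, with a chi-square per degree of freedom of 2.84 and 2.71 against its own group, where the other pairs within a group gave 1.61 to 1.96. Without it the log2 fold changes of Unc13a (0.48), Scg2 (0.37), Ptprn (0.24), Chga (0.21) and Scg3 (-0.24) all still passed, and Chgb did not.

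The line was checked against markers, of which 9 of 10 sympathoadrenal and neuronal ones had enough counts to be tested. They summed to 1774 to 1803 CPM in ADV-shFam172a and 1723 to 1740 CPM in ADV-shCtrl, but single markers moved more than the sum, with 4 called higher and 1 lower. Th, which encodes the rate-limiting enzyme of catecholamine synthesis, averaged 18.7 ± 1.05 CPM in ADV-shFam172a and 9.28 ± 1.30 CPM in ADV-shCtrl (log2 fold change 1.004 ± 0.098, edgeR adjusted p = 1.5e-10). Elavl4, a neuronal RNA-binding protein, averaged 213 ± 7.35 CPM in ADV-shFam172a and 303 ± 3.74 CPM in ADV-shCtrl (-0.50 ± 0.031, edgeR adjusted p = 2.7e-16). Both were named after their values were seen, and the part of this in the results below was not tested. Of pituitary and islet markers, whose cells are also rich in granins, 6 of 8 had 0 counts in every library, among them Prl, Ins1 and Ins2. Their summed level of 19.6 to 20.97 CPM in ADV-shFam172a and 19.2 to 20.5 CPM in ADV-shCtrl came almost wholly from Gh, the growth hormone gene. Fibroblast markers summed to 4.68 to 6.22 CPM in ADV-shFam172a and 6.11 to 6.86 CPM in ADV-shCtrl. Macrophage markers summed to 0.986 to 1.11 CPM in ADV-shFam172a and 0.234 to 0.772 CPM in ADV-shCtrl, with Ptprc and Itgam at 0. Most of that sum was Cd68, the only macrophage marker tested, named after its value was seen. Cd68 was called higher on 3 to 24 counts per library (log2 fold change 0.9985 ± 0.40, edgeR adjusted p = 0.048). Glia markers summed to 28.2 to 33.5 CPM in ADV-shFam172a and 26.9 to 29.1 CPM in ADV-shCtrl, with Aqp4 at 0.

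Of 9 members with a RefSeq promoter window (build GRCm38.p6; no window was matched for Vgf), 3 hold the cAMP response element within the 250 bases before the RefSeq start, and all 3 are granins. This element, spelled TGACGTCA or TGACGTAA and searched on both strands, is bound by CREB and ATF proteins, and in rodent cells it carries the cAMP response of chromogranin and secretogranin promoters. The stretches around it are shown because Chga, Chgb and Scg2 all hold it in either spelling, although their transcripts did not move alike. Each line gives 30 bases, 5′ to 3′ on the gene's strand, with the element in capitals.
Chga, chr12:102554886-102554915, plus strand: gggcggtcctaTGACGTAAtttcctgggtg
Chgb, chr2:132781559-132781588, plus strand: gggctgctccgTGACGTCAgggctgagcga
Scg2, chr1:79440076-79440105, minus strand: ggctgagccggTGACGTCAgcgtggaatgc
The element lies at -44 to -37 in Chga, at -72 to -65 in Chgb and at -68 to -61 in Scg2, counted from the RefSeq start. Chga has the TGACGTAA form, found in 0.447% of all 32851 windows of this length, and Chgb and Scg2 have the TGACGTCA form, found in 1.55%. GENCODE M21 annotates exons further upstream for Chgb and Scg2, covering 250 and 94 bases of their windows, and the elements of both lie within these exons.

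The windows of Unc13a and Scg3, the members with the largest rise and the largest fall, are shown whole for comparison. Neither holds the cAMP response element. Capitals mark ACGTG, which with GCGTG makes up the core of the site bound by hypoxia-inducible factors. Both windows hold the core, as ACGTG in 1 place and GCGTG in 2 places on the other strand in Unc13a, and as GCGTG in 1 place on the other strand in Scg3. ACGTG is in 16.6% of all windows.
Unc13a, chr8:71671758-71672007, minus strand: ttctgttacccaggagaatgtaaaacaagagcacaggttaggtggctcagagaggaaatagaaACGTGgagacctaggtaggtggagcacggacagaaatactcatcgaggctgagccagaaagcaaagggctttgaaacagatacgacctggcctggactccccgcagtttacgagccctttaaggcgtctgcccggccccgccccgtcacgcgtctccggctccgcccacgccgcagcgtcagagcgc
Scg3, chr9:75684057-75684306, minus strand: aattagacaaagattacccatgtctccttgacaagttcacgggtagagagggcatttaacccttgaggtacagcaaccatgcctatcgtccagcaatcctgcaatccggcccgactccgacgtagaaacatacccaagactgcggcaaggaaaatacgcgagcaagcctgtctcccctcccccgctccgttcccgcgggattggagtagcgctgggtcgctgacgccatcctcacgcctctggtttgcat
Across the members, ACGTG was found in 4, the other form of that core, GCGTG, in 7 (28.2% of all windows), the E-box CACGTG in 1 (6.02%), the Sp1 motif GGGCGG in 6 (32.7%) and the TATA box TATAAA in 0 (12.4%). The E-box, in Cadps2, overlaps an ACGTG match on each strand. A match is a string of letters and no measure of binding.

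**Figure D1:**
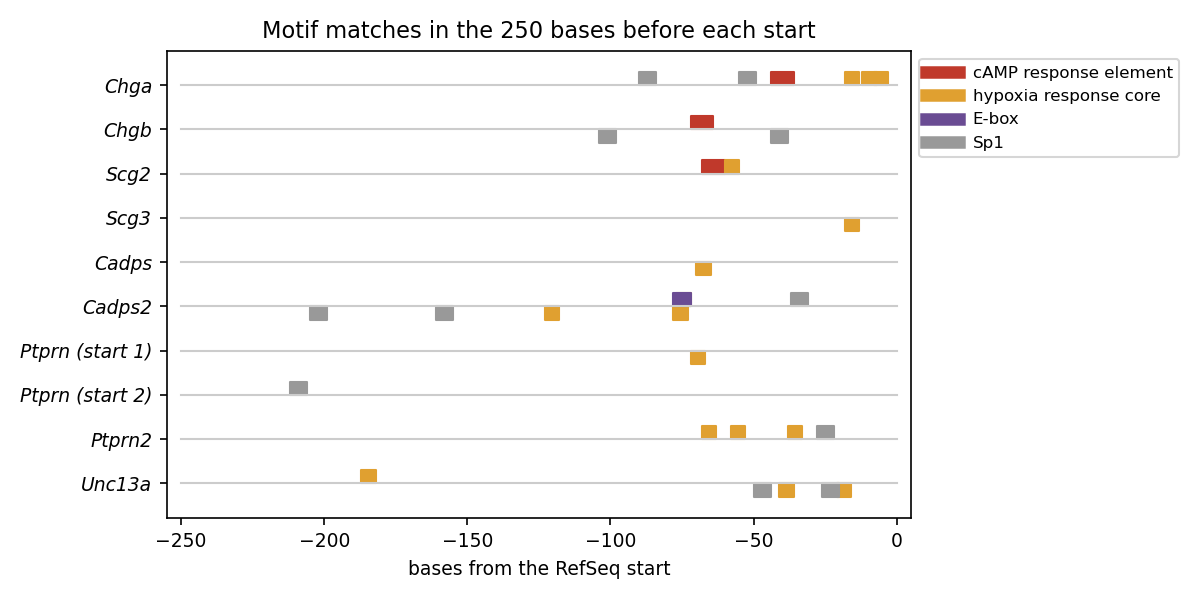
Motif matches in the 250 bases before the RefSeq start of each member with a window (x axis, bases from the start; Ptprn has 2 starts). Bars above a line match the gene's strand and bars below it the other strand; the cAMP response element appears in Chga, Chgb and Scg2, between 72 and 37 bases before the start.

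Granin transcripts were abundant in both groups, and transcripts of the 2 CAPS genes were nearly undetected. Per kilobase of merged exon, Chgb stood highest, at 232 ± 4.49 CPM per kb in ADV-shFam172a and 243 ± 7.53 CPM per kb in ADV-shCtrl. Vgf followed at 186 ± 6.42 CPM per kb in ADV-shFam172a and 180.4 ± 8.90 CPM per kb in ADV-shCtrl. The next positions differed between the groups. Scg2 was the third member in ADV-shFam172a, at 155 ± 2.62 CPM per kb, and the fourth in ADV-shCtrl, at 121 ± 5.67 CPM per kb. Scg3 was the fourth in ADV-shFam172a, at 114 ± 0.870 CPM per kb, and the third in ADV-shCtrl, at 134 ± 1.10 CPM per kb. Chga stood at 84.4 ± 3.60 CPM per kb in ADV-shFam172a and 74.99 ± 0.888 CPM per kb in ADV-shCtrl.

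Below the granins came Ptprn, at 42.9 ± 1.14 CPM per kb in ADV-shFam172a and 36.5 ± 1.147 CPM per kb in ADV-shCtrl, and Unc13a, at 34.7 ± 0.290 CPM per kb in ADV-shFam172a and 25.01 ± 0.407 CPM per kb in ADV-shCtrl. Ptprn2 was far lower, at 2.26 ± 0.123 CPM per kb in ADV-shFam172a and 2.25 ± 0.114 CPM per kb in ADV-shCtrl. Cadps averaged 0.0198 and Cadps2 0.00318 CPM per kb in ADV-shFam172a, against 0.0223 and 0.00543 CPM per kb in ADV-shCtrl. Within each group no 2 neighbours in this order had overlapping library values, and the ranks of all 10 genes in both groups were the same with the length of the longest transcript in place of merged exons.

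**Figure D2:**
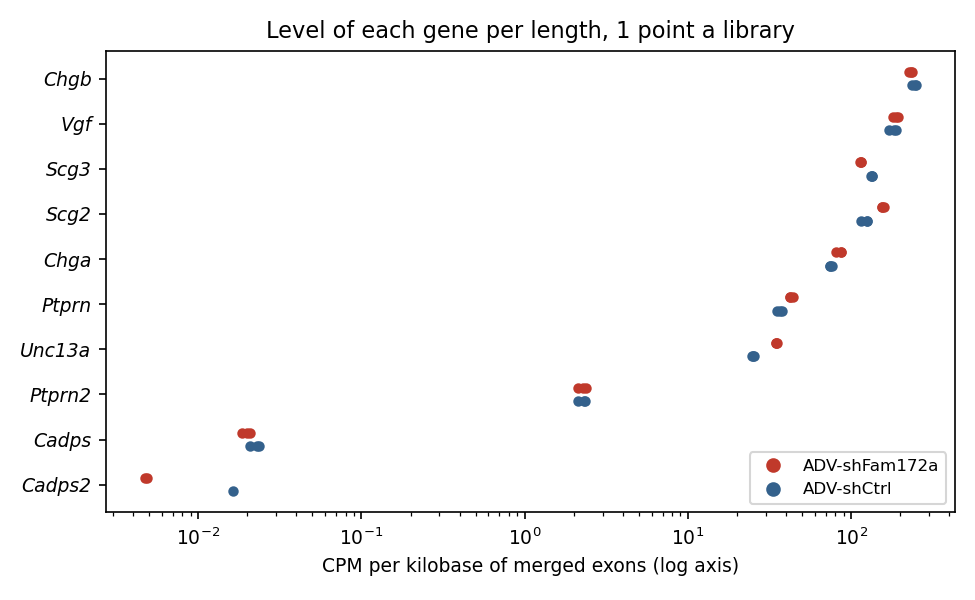
Level of each member in each library as CPM per kilobase of merged exons (x axis, log scale), ordered by the ADV-shCtrl mean. Libraries with 0 counts of Cadps2 (1 of ADV-shFam172a and 2 of ADV-shCtrl) have no point; Scg2 lies above Scg3 in ADV-shFam172a and below it in ADV-shCtrl.

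The comparison of ADV-shFam172a with ADV-shCtrl asks which of these transcripts differ when Fam172a is lowered. Of the 10 members, 8 had enough counts for the test, all with at least 226 counts in every library, and Cadps and Cadps2 did not. Unc13a, Scg2, Ptprn and Chga rose, Scg3 and Chgb fell, and Vgf and Ptprn2 did not pass (edgeR's quasi-likelihood test, Benjamini-Hochberg adjusted p under 0.05 over 12820 genes). The 4 rises stand beside 17.5% of all genes tested that were called higher, and the 2 falls beside 18.6% called lower. In all, 36.1% of genes tested were called in either direction, and 56.4% of those with a mean of at least 100 CPM, a level that 7 of the members reach (a level chosen after the values were seen), so a call alone was common among genes this abundant. In such bulk RNA a change in fewer cells and a smaller change in all cells cannot be told apart. The median log2 fold change of the 8 was 0.11, against -0.00030 over all genes tested. In 5 of the 8 the groups did not overlap, where 46.0% of all genes tested had no overlap.

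**Figure D3:**
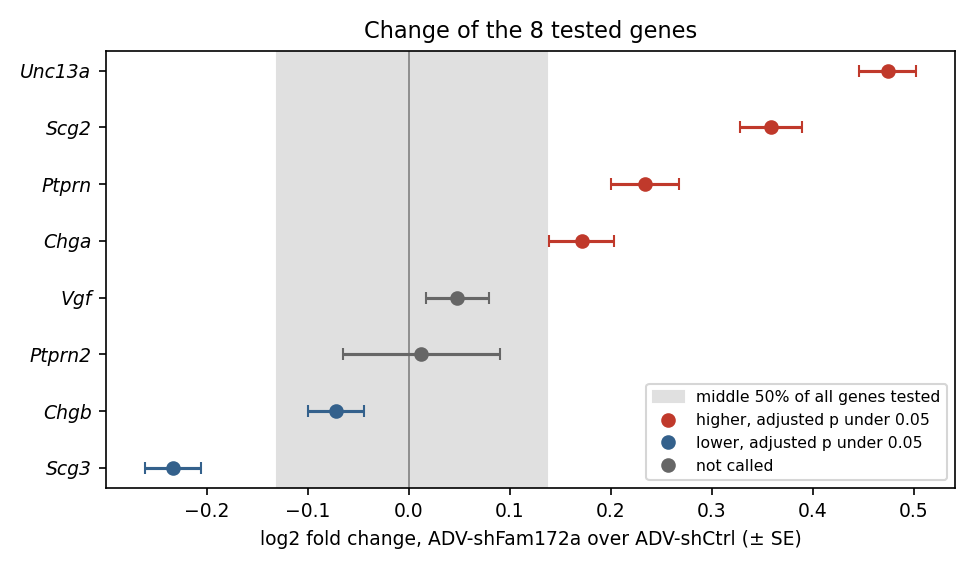
Log2 fold change, ADV-shFam172a over ADV-shCtrl, of the 8 members tested (points; bars are SE), with the middle 50% of all genes tested in grey (-0.13 to 0.14). Unc13a lies at 0.47 and Scg3 at -0.23, and Vgf, Ptprn2 and Chgb lie within the grey band.

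Among the granins, Scg2 and Chga rose while Scg3 and Chgb fell and the summed level overlapped between the groups. Chga, Chgb, Scg2, Scg3 and Vgf together took 0.212% ± 0.00425 of all gene counts in ADV-shFam172a and 0.209% ± 0.00229 in ADV-shCtrl (SD, n = 3 each). Their summed level was 2077 to 2166 CPM in ADV-shFam172a and 2064 to 2104 CPM in ADV-shCtrl, and these ranges overlap. Within the sum, the share of read pairs from Scg2 was 18.4% ± 0.221 in ADV-shFam172a and 14.6% ± 0.820 in ADV-shCtrl. That of Scg3 was 14.7% ± 0.340 in ADV-shFam172a and 17.6% ± 0.146 in ADV-shCtrl.

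Scg2 encodes secretogranin II, the precursor of the neuropeptide secretoneurin, and lies on chromosome 1 at 79434669 to 79440120 (GRCm38, minus strand), with 2 merged exons. It had 386, 398 and 386 CPM in the ADV-shFam172a libraries, against 312, 312 and 288 CPM in the ADV-shCtrl libraries. Every ADV-shFam172a library lay above every ADV-shCtrl library. Scg2 was 1.28-fold higher in ADV-shFam172a, a log2 fold change of 0.36 ± 0.031 (SE; edgeR adjusted p = 6.1e-12), and 7.88% of all genes tested had a larger rise.

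Chga encodes chromogranin A, a main protein of the granule core and the precursor of vasostatin, pancreastatin and catestatin. It lies on chromosome 12 at 102554969 to 102565028, plus strand, with 8 merged exons. It had 239, 237 and 221 CPM in the ADV-shFam172a libraries, against 205, 209 and 206 CPM in the ADV-shCtrl libraries. The groups did not overlap, though ADV-shFam172a replicate 3 lay nearer to ADV-shCtrl than the other two did. The log2 fold change was 0.17 ± 0.033 (edgeR adjusted p = 5.9e-05), a 1.13-fold difference.

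Scg3 encodes secretogranin III, which binds chromogranin A and cholesterol-rich granule membrane and so links the core to the membrane. It lies on chromosome 9 at 75643189 to 75684056, minus strand, with 14 merged exons. It had 309, 313 and 313 CPM in the ADV-shFam172a libraries, against 369, 363 and 368 CPM in the ADV-shCtrl libraries. All 3 ADV-shFam172a libraries lay below all 3 ADV-shCtrl libraries, and the SDs were 2.38 CPM in ADV-shFam172a and 3.02 CPM in ADV-shCtrl. Scg3 fell by 0.23 ± 0.028 on the log2 scale (edgeR adjusted p = 1.6e-08), the largest fall among the members tested, and 87.7% of all genes tested had a higher log2 fold change.

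Chgb encodes chromogranin B, the other classical chromogranin, and lies on chromosome 2 at 132781278 to 132795079, plus strand, with 5 merged exons. It had 635, 647 and 622 CPM in the ADV-shFam172a libraries, against 645, 672 and 685 CPM in the ADV-shCtrl libraries. The groups overlapped, since ADV-shFam172a replicate 2 lay above ADV-shCtrl replicate 1. Its log2 fold change of -0.07 ± 0.028 passed narrowly (edgeR adjusted p = 0.038). The call ended when ADV-shFam172a replicate 1 (-0.07, adjusted p = 0.080), ADV-shFam172a replicate 3 (-0.06, adjusted p = 0.13), ADV-shCtrl replicate 2 (-0.07, adjusted p = 0.11) or ADV-shCtrl replicate 3 (-0.05, adjusted p = 0.24) was left out, so the call of Chgb depends on which libraries enter.

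Vgf, a gene induced by nerve growth factor whose peptides act on feeding and energy use in rodents, lies on chromosome 5 at 137026392 to 137033351, plus strand. It had 558, 571 and 534 CPM in the ADV-shFam172a libraries, against 545, 507 and 558 CPM in the ADV-shCtrl libraries. The groups overlapped, and the log2 fold change of 0.05 ± 0.031 did not pass (edgeR adjusted p = 0.24). Its sign turned once gene length and base composition entered the fit as offsets (-0.01, adjusted p = 0.71).

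**Figure D4:**
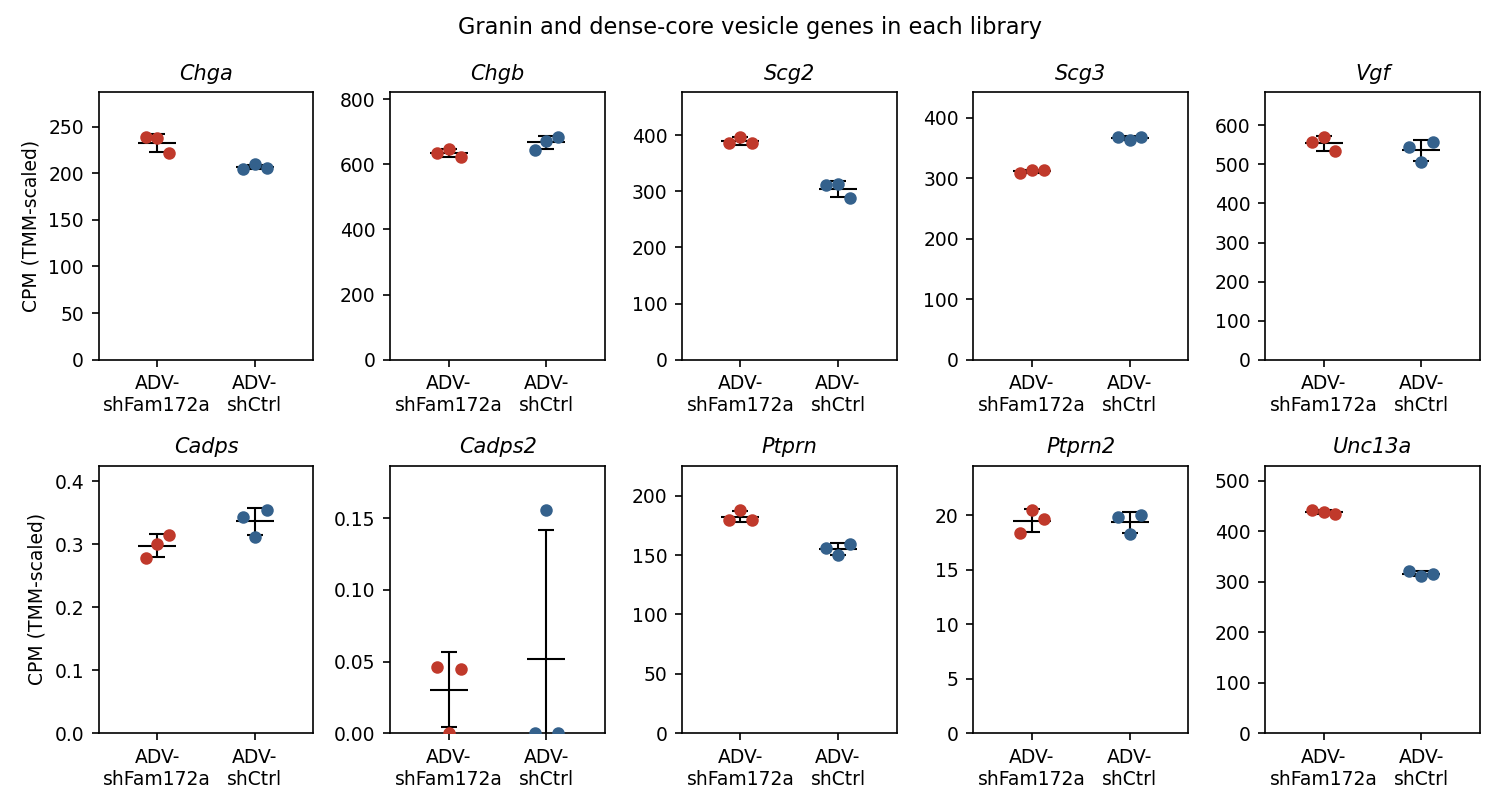
CPM of each member in each library (points), with the group mean and SD (bars; n = 3 each); every y axis starts at 0 and has its own scale. The groups do not overlap for Chga, Scg2, Scg3, Ptprn and Unc13a, and Cadps and Cadps2 stay under 0.4 CPM in every library.

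Of the priming proteins, Unc13a rose and the CAPS genes were too low to test. Unc13a encodes Munc13, which opens syntaxin for SNARE assembly and is best known from synaptic vesicles. It lies on chromosome 8 at 71624417 to 71671757, minus strand, with 44 merged exons. It had 442, 438 and 435 CPM in the ADV-shFam172a libraries, against 321, 311 and 316 CPM in the ADV-shCtrl libraries. The lowest ADV-shFam172a library lay far above the highest ADV-shCtrl library, and libraries of a group differed little. Unc13a was 1.39-fold higher in ADV-shFam172a, a log2 fold change of 0.47 ± 0.028 (edgeR adjusted p = 1.3e-16), and 4.91% of all genes tested had a larger rise. Its exons share 495 bases with Colgalt1 on the opposite strand, and the strand setting of the counting is not given in the sources used here. Colgalt1 itself averaged 157 ± 3.98 CPM in ADV-shFam172a and 155 ± 5.76 CPM in ADV-shCtrl (log2 fold change 0.01, adjusted p = 0.80).

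Cadps and Cadps2 encode the CAPS proteins, which prime dense-core vesicles through the lipid PIP2 and SNARE proteins. Cadps lies on chromosome 14 at 12372563 to 12823079 and Cadps2 on chromosome 6 at 23262773 to 23839421, both on the minus strand. Cadps had 6, 7 and 7 counts in the ADV-shFam172a libraries, against 4, 4 and 4 counts in the ADV-shCtrl libraries. Summed over libraries this was 0.298 CPM (exact 95% Poisson interval 0.182 to 0.460) in ADV-shFam172a and 0.335 CPM (0.173 to 0.586) in ADV-shCtrl. The ratio of 0.888 had an interval of 0.414 to 1.99, so these counts allow a fall as well as a rise. Which changes could have been detected at this depth was not computed. Cadps2 had 2 counts in all in ADV-shFam172a and 2 in ADV-shCtrl, a ratio of 0.533 with an interval of 0.0386 to 7.35. These intervals cover counting error only. Another Munc13 gene, Unc13b, was as low as Cadps, with 14 counts in all in ADV-shFam172a and 8 in ADV-shCtrl. Unc13d of the same family, named after its value was seen, averaged 9.87 ± 0.449 CPM in ADV-shFam172a and 7.72 ± 1.66 CPM in ADV-shCtrl. It was called higher (log2 fold change 0.36 ± 0.12, edgeR adjusted p = 0.021), although the groups overlapped.

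Of the membrane phosphatases, Ptprn rose and Ptprn2 did not pass. Ptprn encodes ICA512, whose cytoplasmic part is cut off after granule fusion and can enter the nucleus in islet cells. It lies on chromosome 1 at 75247027 to 75264502, minus strand, with 24 merged exons. It had 179, 188 and 179.8 CPM in the ADV-shFam172a libraries, against 156, 149.9 and 159 CPM in the ADV-shCtrl libraries. The groups did not overlap, and the log2 fold change was 0.23 ± 0.034 (edgeR adjusted p = 6.6e-07), a 1.18-fold difference. An annotated antisense gene shares 189 bases of its exons and was not analysed here.

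Ptprn2 encodes phogrin, the paralog of ICA512, and lies on chromosome 12 at 116485720 to 117276849, plus strand. It had 18.4, 20.5 and 19.6 CPM in the ADV-shFam172a libraries, against 19.8, 18.2 and 20.02 CPM in the ADV-shCtrl libraries. The groups overlapped, with a log2 fold change of 0.01 ± 0.078 (edgeR adjusted p = 0.92). Ptprn2 had 396 to 477 counts per library in ADV-shFam172a and 226 to 234 in ADV-shCtrl, and its SE was larger than that of any other member tested.

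Ratios of related members within a library do not depend on how libraries are scaled. The log2 ratio of Scg2 to Scg3 counts was 0.32, 0.34 and 0.30 in the ADV-shFam172a libraries, against -0.24, -0.22 and -0.35 in the ADV-shCtrl libraries. Scg2 thus had more counts than Scg3 in every ADV-shFam172a library and fewer in every ADV-shCtrl library, a 1.51-fold difference in the ratio. The log2 ratio of Chga to Chgb was -1.45 ± 0.043 in ADV-shFam172a and -1.69 ± 0.042 in ADV-shCtrl, and that of Ptprn to Ptprn2 was 3.23 ± 0.051 in ADV-shFam172a and 3.001 ± 0.032 in ADV-shCtrl. For these 3 ratios the groups did not overlap. Each gave p = 0.1 in a two-sided exact permutation test, the smallest value that 3 against 3 libraries allow, and 0.125 after Benjamini-Hochberg adjustment over 5 ratios. The other two, Cadps to Cadps2 (exact p = 0.8) and Unc13a to Unc13b (exact p = 0.1), rest on denominators of at most 6 counts per library and are not read further.

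The wider granule machinery also moved in both directions. Grouped by role, 5 lists held 90 genes, and 61 of these were tested. In ADV-shFam172a 18 rose, 10 fell and 33 were not called, and the median over the 61 was 0.054 on the log2 scale. Over all genes tested, 17.5% were called higher, 18.6% lower and 36.1% in either direction, and the falls in the lists were near that background. Among genes with a mean of at least 100 CPM, 56.4% were called in either direction. The lists were not matched to genes of like level, so their calls are not read as particular to granule genes. The members stand within this spread, as the plot of granule genes by role shows.

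**Figure D5:**
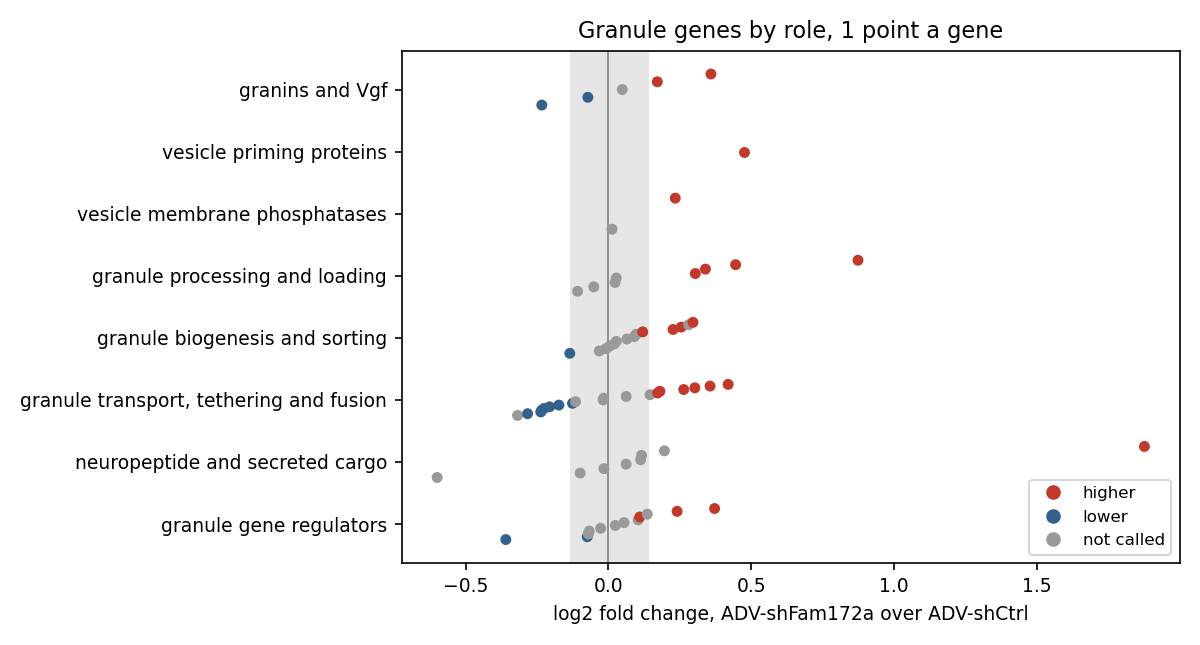
Log2 fold change, ADV-shFam172a over ADV-shCtrl (x axis), of each tested gene in the member groups (top 3 rows) and in 5 wider lists, with the middle 50% of all genes tested in grey. Processing and loading genes hold 4 rises and 0 falls, while transport, tethering and fusion genes hold 6 rises and 7 falls.

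Among genes that process and load granule cargo, 4 of 8 tested rose and 0 fell, with a median of 0.17, beside 17.5% of all genes called higher and 18.6% lower. The gene past 1.5-fold was Slc18a1, the vesicular monoamine transporter of chromaffin granules, at 4.05 ± 0.479 CPM in ADV-shFam172a and 2.21 ± 0.389 CPM in ADV-shCtrl (log2 fold change 0.87 ± 0.20, edgeR adjusted p = 5.8e-04). The other rises were named after their values were seen. Scg5, the granin-related chaperone 7B2 of the convertase Pcsk2, averaged 114 ± 2.85 CPM in ADV-shFam172a and 83.9 ± 1.94 CPM in ADV-shCtrl (0.45 ± 0.039, edgeR adjusted p = 1.3e-11). Pcsk1n, which encodes proSAAS, an inhibitor of the convertase Pcsk1, was at 0.30 ± 0.054 (adjusted p = 2.4e-05), and the amidating enzyme Pam at 0.34 ± 0.037 (adjusted p = 1.8e-09). Pcsk1n shares 135 exonic bases with Eras on the opposite strand, and Pam 188 with an annotated transcript on its own strand. The convertases themselves were scarce, with 0 counts of Pcsk1 in all 6 libraries and 3.09 ± 0.216 CPM of Pcsk2 in ADV-shFam172a and 3.33 ± 0.397 CPM in ADV-shCtrl.

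Among granule biogenesis and sorting genes, 4 of 14 tested rose and 1 fell (median 0.077), beside the same 17.5% and 18.6%. Hid1, a trans-Golgi protein of granule formation, was at 0.30 ± 0.037 (edgeR adjusted p = 3.6e-08), and Dmxl2, a partner of the vesicular proton pump, at 0.23 ± 0.039 (adjusted p = 1.2e-05). Rundc1, whose worm relative takes part in dense-core vesicle maturation in Caenorhabditis elegans, was at 0.25 ± 0.061 (adjusted p = 9.7e-04), and it shares 249 exonic bases with Ptges3l on the opposite strand. The gene that fell, named after its value was seen, was Ica1, an islet autoantigen of secretory membranes, at -0.14 ± 0.042 (adjusted p = 0.0100), and its call ended without ADV-shCtrl replicate 2 (-0.11, adjusted p = 0.090).

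Among genes of transport, tethering and fusion, 6 of 19 tested rose and 7 fell (median -0.019), where 17.5% of all genes were called higher and 18.6% lower. The small GTPases Rab3c and Rab27a, which sit on secretory vesicles, were at 0.30 ± 0.033 (edgeR adjusted p = 2.0e-09) and 0.42 ± 0.057 (adjusted p = 2.3e-07). Rab27a shares 149 exonic bases with an annotated pseudogene on its own strand. Cplx1, a complexin that binds assembled SNARE proteins, was at -0.23 ± 0.034 (adjusted p = 8.9e-07). The SNARE genes, named after their values were seen, moved apart, with Snap25 at 0.18 (adjusted p = 1.1e-05), Vamp2 at 0.26 (adjusted p = 5.7e-06) and Stx1a at -0.24 (adjusted p = 6.7e-04).

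Among neuropeptides and other cargo, 8 of 21 had 0 counts in every library, 8 were tested, 1 rose and 0 fell, against a background of 17.5% higher and 18.6% lower. Without ADV-shCtrl replicate 3 the count of falls was 1. The one that rose was Adm, the vasodilator peptide adrenomedullin, at 28.96 ± 2.295 CPM in ADV-shFam172a and 7.97 ± 3.97 CPM in ADV-shCtrl (1.88 ± 0.29, edgeR adjusted p = 0.0083). Each ADV-shFam172a library lay above each ADV-shCtrl library, and the ADV-shCtrl libraries ranged widely, at 12.4, 4.83 and 6.64 CPM. The call of Adm ended with replicate number as a block in the fit (1.88, edgeR adjusted p = 0.067). It also ended with that block and length and GC offsets together (1.91, adjusted p = 0.073). Pomc, the precursor of the melanocortin peptides and named for the series' subject, averaged 2.71 CPM in ADV-shFam172a and 2.58 CPM in ADV-shCtrl and did not pass (edgeR adjusted p = 0.85).

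Of genes known to regulate granule genes, 3 of 12 tested rose and 2 fell (median 0.039), beside 17.5% higher and 18.6% lower over all genes. The second fall was Ptbp1, a splicing regulator that also binds granule mRNAs in islet cells, named after its value was seen (-0.07 ± 0.029, edgeR adjusted p = 0.044). Its call ended in 11 of 18 alternatives, among them leaving out any 1 library other than ADV-shCtrl replicate 3 (adjusted p of 0.056 to 0.23). The exons of Ptbp1 overlap those of 3 annotated genes on the opposite strand. Rcor2 and Rcor1, corepressors that work with the neuronal gene repressor REST, were at 0.37 ± 0.035 (edgeR adjusted p = 8.3e-11) and 0.24 ± 0.057 (adjusted p = 0.0010). Rcor1 shares 53 exonic bases with an annotated gene on its own strand. Rest itself, named after its value was seen, was at 21.3 ± 1.86 CPM in ADV-shFam172a and 19.4 ± 1.03 CPM in ADV-shCtrl and did not pass (adjusted p = 0.19). Atf1, a factor of the family that binds the cAMP response element, was at -0.36 ± 0.045 (adjusted p = 4.1e-08), while its relative Creb1, also named after its value was seen, was at 0.11 ± 0.039 (adjusted p = 0.024). That call of Creb1 ended without ADV-shFam172a replicate 3 (0.08, adjusted p = 0.12), without ADV-shCtrl replicate 1 (0.10, adjusted p = 0.067) or without ADV-shCtrl replicate 3 (0.11, adjusted p = 0.060), and also with the DESeq2 test (adjusted p = 0.073) and with libraries thinned to the smallest (adjusted p = 0.077).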

How the data were processed

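The submitters' processing notes name HISAT2 2.0.5, HTSeq and build mm10 for the raw read-pair counts per gene symbol that the authors deposited. Not given in the sources used here are the annotation and strand setting of the counting. Counts were read from the series-wide table, with 0 differences to the tables of single samples. Rows that name no gene (unassigned, ambiguous, unaligned or low-quality pairs) were left out; pairs in no gene were 17.2% to 17.9% of all pairs in ADV-shFam172a and 16.4% to 16.6% in ADV-shCtrl, and pairs with several alignments 9.99% to 10.4% and 9.58% to 9.71%.

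Genes were filtered with filterByExpr (12820 of 18128 genes with any count), scaled by TMM and tested across all of them with edgeR 4.0.16 in R 4.3.3 (robust quasi-likelihood, group as the sole term, two-sided, Benjamini-Hochberg). A fold change is ADV-shFam172a over ADV-shCtrl, and the SE follows from dividing its absolute value by the root of the F statistic. Values are mean ± SD with n = 3 each unless SE is given, and ± after a log2 fold change is SE. The fit was tested on simulated data. Ratios had 0.5 added to both counts. Lengths came from GENCODE M21 (24046 of 24421 rows matched), and promoter windows from RefSeq. Protein sequences were not used here.

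No pair of libraries agreed within sampling noise (chi-square per degree of freedom 1.61 to 2.84 within groups). Each library was counted as 1 sample, though spread beyond sampling noise does not show that replicates were infected separately. All 10 members are named; of each other list, genes called with at least a 1.5-fold change are named, or else the 3 called genes with the smallest p. The members and lists were chosen with earlier results of these data known. Alternatives tried were other scalings (DESeq2 size factors, upper quartile, library totals), other filters, DESeq2 1.42.0, limma-voom (limma 3.58.1), no robust estimation, thinning to the smallest library, a replicate block, length and GC offsets, and leaving out each library. Some markers of the line are not reported here.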

Additional observations from a re-analysis of the deposited data

How the results depend on the processing

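The rises of Unc13a, Scg2, Ptprn and Chga and the fall of Scg3 kept their direction and stayed past the threshold under all 18 alternatives, with log2 fold changes of 0.38 to 0.49, 0.32 to 0.41, 0.19 to 0.26, 0.15 to 0.21 and -0.24 to -0.18. Members called higher numbered 4 throughout. Members called lower numbered 1 with upper-quartile factors, with no filter on low counts, with the DESeq2 test and with libraries thinned to the smallest, since the call of Chgb ended (adjusted p = 0.10, 0.059, 0.051 and 0.12), and 1 to 2 when one library was left out. Nothing in the labels says that replicate numbers pair the samples. Same-numbered libraries had deviations from their group mean with correlations of -0.0096 to -0.0038. Such correlations over all genes tested cannot exclude a pairing that acts on few genes. With the replicate block 1 member was called lower, Chgb being at -0.07 (edgeR adjusted p = 0.065). Adm was then at 1.88 (adjusted p = 0.067), or 1.91 (adjusted p = 0.073) with the block and offsets together. Genes of the 5 wider lists called lower numbered 6 to 11 when one library was left out, the 6 without ADV-shCtrl replicate 2, and genes of all tested called higher and lower numbered 1636 to 2486 and 1763 to 2547 over the 18 alternatives. Granule gene regulators called lower numbered 1 in 11 of the 18 alternatives, since the call of Ptbp1 ended. Neither Vgf nor Ptprn2 was called under any alternative. With length and GC offsets Vgf was at -0.014 and Ptprn2 at -0.0058, and with the replicate block added Vgf was at -0.014 and Ptprn2 at -0.0064. Leaving out one library put Ptprn2 between -0.031 and 0.054. Pomc, not called under any alternative, was at -0.12 with thinned libraries and between -0.053 and 0.15 with one library left out. The cause of these changes was not tested. The 3 ratios read in the text kept their sign, at 0.55 to 0.62 for Scg2 to Scg3, 0.22 to 0.26 for Chga to Chgb and 0.20 to 0.24 for Ptprn to Ptprn2. ADV-shCtrl libraries were the shallower ones, which limits Cadps, Cadps2 and low cargo genes.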
